A study of Mus musculus with 3 samples.

Results

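Vascular leptomeningeal fibroblasts, the collagen-secreting cells of the brain's soft coverings and of the sheaths around its larger vessels, were sought in single-cell data of the mouse arcuate nucleus. They made up 97 of the 16627 barcodes kept (those with 250 or more genes seen and no more than 20% of UMIs from mitochondrial genes; a UMI, or unique molecular identifier, marks 1 captured transcript molecule). A barcode was a member when at least 3 of the collagen and proteoglycan genes Dcn, Lum, Col1a1, Col1a2 and Col3a1 were detected, when these summed to at least 8 UMIs, and when that sum exceeded both an endothelial sum (Cldn5, Flt1, Ly6c1, Itm2a) and a pericyte sum (Vtn, Kcnj8, Higd1b). Members numbered 12 of 5610 kept barcodes in the standard chow (SC) library, 15 of 4906 in the library of 5 days of high-fat high-sugar (HFHS) diet, and 70 of 6111 in the library of 15 days of HFHS diet.

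All mice were male C57BL/6JRj animals of 5 to 6 weeks and the labels name no engineered allele. From weaning they ate SC for 15 days, SC for 10 days followed by HFHS for 5 days, or HFHS for 15 days. The arcuate nucleus, which lies beside the third ventricle and governs food intake, was punched out, the punches of 6 mice of a diet were pooled, and the pool was dissociated with enzymes and run as 1 droplet library that counts transcripts from their 3' ends. With 1 library per diet there was no replicate check on any difference between diets, and diet, pool, dissection and library preparation cannot be told apart.

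In the mouse, fibroblasts of the arachnoid and pia lay down the basement membrane that seals the brain surface, and they follow larger vessels inwards. They are known for solute carriers that move GABA, organic anions and other small molecules, for lipid-binding secreted proteins and for transcription factors such as Foxc1, Foxd1, Zic1 and Tbx18. Pericytes and endothelial cells are the vessel wall cells nearest to them, so both served here as the comparison, with 446 pericytes and 1443 endothelial cells chosen by the same kind of marker sums.

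The members fell into unlike sets, and whether the label fits each of them was not tested. Of 5 solute carriers known from leptomeningeal fibroblasts (Slc6a13, Slc6a20a, Slc13a3, Slc22a6 and Slc47a1), 31 members had at least 2 UMIs, 10 had exactly 1 and 56 had none. Slc6a13, Slc6a20a and Slc13a3 were also found in pericytes (shares below), so by themselves they do not mark fibroblasts among vascular cells. The 31 transporter-positive members carried the solute carrier Slc6a13, which the split used, together with Lama1, Il34 and Zic1 in most of them. The 56 transporter-negative members had a similar median sum of the 5 collagen and proteoglycan genes (125 UMIs, against 131 in positive members). They rarely had Lama1, Il34 or Zic1, and had high Gsn, Mfap4 and Mgp. They shared other genes with the positive members, with Apod in 53, Col15a1 in 43 and Foxd1 in 43 of the 56. Foxd1 was also found in 69.5% of pericytes, so it does not mark fibroblasts among vascular cells. They are called by that rule and given no cell type name. The split was made after the values had been seen, so the genes that define it and the size of either set carry no test. Positive members numbered 11 (SC), 9 (5-day) and 11 (15-day), and negative members 0, 2 and 54, so the negative set cannot be told apart from the 15-day library.

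The libraries held 59315940 (SC), 52735770 (5-day) and 43193012 (15-day) UMIs, and members supplied 129203, 105084 and 433104 of them. Median depth per member was 7937, 7593 and 5702 UMIs, against 4618, 4547 and 3637 UMIs over all kept barcodes, and median mitochondrial share was 3.76%, 4.84% and 5.58%. Values are CPM (a gene's UMI counts scaled to an equal total in each group) of the members named, brackets hold exact 95% intervals, and both cover counting error only. Where a group had no UMI of a gene, a fold given as at least puts 3 UMIs in that group. It leaves out the counting error of the other group, so it is not the lower end of an interval. Between 13 and 85 barcode sequences were shared by any pair of libraries, and none of them was a member. Of the 97 members, 81 had all 5 gate genes, 10 had 4 and 6 had 3, and the gate sum had a median of 144 UMIs (SC), 137 (5-day) and 125 (15-day). At the limit of 8 UMIs there were 0, 2 and 3 members with 8 to 11 UMIs in the SC, 5-day and 15-day libraries, and 2, 0 and 3 barcodes just outside with 4 to 7 UMIs. Other limits shut out more barcodes with sums of 8 or above: 24, 17 and 5 had fewer than 3 gate genes, and 14, 13 and 7 had an endothelial or pericyte sum at least as high.

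As a share of kept barcodes, members were 0.214% [0.111 to 0.373] in SC, 0.306% [0.171 to 0.504] at 5 days and 1.15% [0.894 to 1.45] at 15 days. The ratio to SC was 5.36 [2.88 to 10.9] at 15 days and 1.43 [0.625 to 3.34] at 5 days. Transporter-positive members did not follow this pattern, at 0.196% [0.0979 to 0.351], 0.183% [0.0839 to 0.348] and 0.180% [0.0899 to 0.322] of the 3 libraries. Their ratios to SC were 0.936 [0.343 to 2.48] at 5 days and 0.918 [0.361 to 2.33] at 15 days, intervals that still allow a change of over 2 times in either direction. Transporter-negative members were 0.884% [0.665 to 1.15] of the 15-day library, at least 16.5-fold above the 0.0535% that a count of 0 allows in SC (3 barcodes). Of the 70 members at 15 days, 54 had none of the 5 transporters. Against the vascular barcodes alone (fibroblasts, pericytes and endothelial cells), members were 1.83% (SC), 2.44% (5-day) and 9.79% (15-day).

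**Figure D1:**
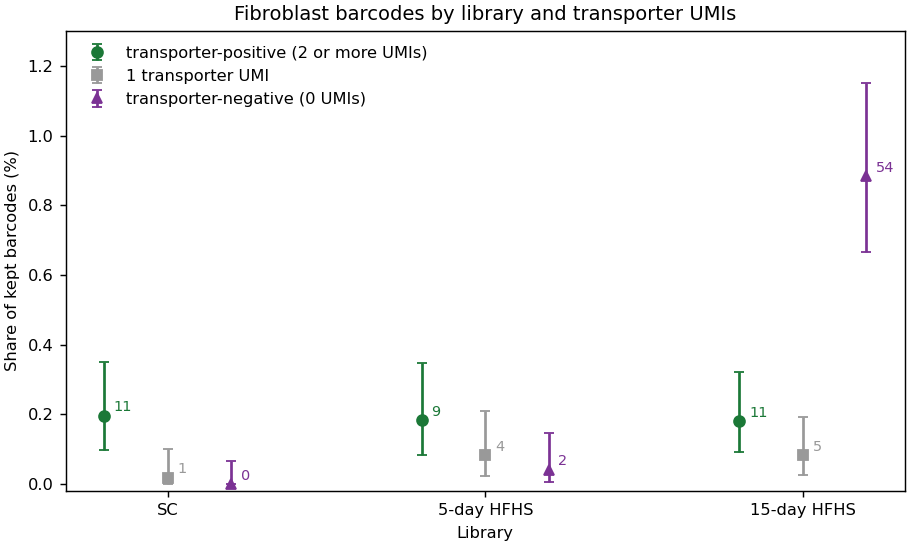
Share of kept barcodes (%) that passed the fibroblast gate, by library and by UMIs of the 5 solute carriers; points are the shares, bars exact 95% intervals, and numbers the members. Transporter-positive shares lie between 0.180% and 0.196% in all 3 libraries, while the transporter-negative share is 0.884% at 15 days.

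The 2 sets separated almost member by member on genes the split did not use. Gsn, which encodes the actin-severing protein gelsolin, reached 50 UMIs per 10000 in 50 of 56 transporter-negative members, in 8 of the 10 with 1 transporter UMI and in 0 of 31 transporter-positive members. By UMIs, Gsn ran from 1 through a median of 87 to 228 in the 54 negative members of the 15-day library, and from 0 through a median of 2 to 23 over all 31 positive members. Vtn, which encodes the adhesive glycoprotein vitronectin and which the gate held below the collagen sum, was detected in 31 of 31 positive members, 1 of 10 with 1 transporter UMI and 2 of 56 negative members. Members with 1 transporter UMI thus looked mostly like the negative set, and 3 of the 15 members of the 5-day library and 1 of the 12 of the SC library had Gsn at 50 per 10000 or above. With every member thinned to 1000 UMIs, which leaves out 3 shallower negative members, Vtn was seen in 74.2% of positive and 0 of 53 negative members, and Gsn in 35.5% of positive and 92.5% of negative members. Before thinning Vtn was seen in 100% of positive and 3.57% of negative members and Gsn in 83.9% and 98.2%. In endothelial cells, which should lack both, the thinned shares were 9.96% for Vtn and 3.44% for Gsn (22.0% and 14.6% before thinning), at median depths of 7402 (positive), 5702 (negative) and 7589 (endothelial) UMIs before thinning.

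**Figure D2:**
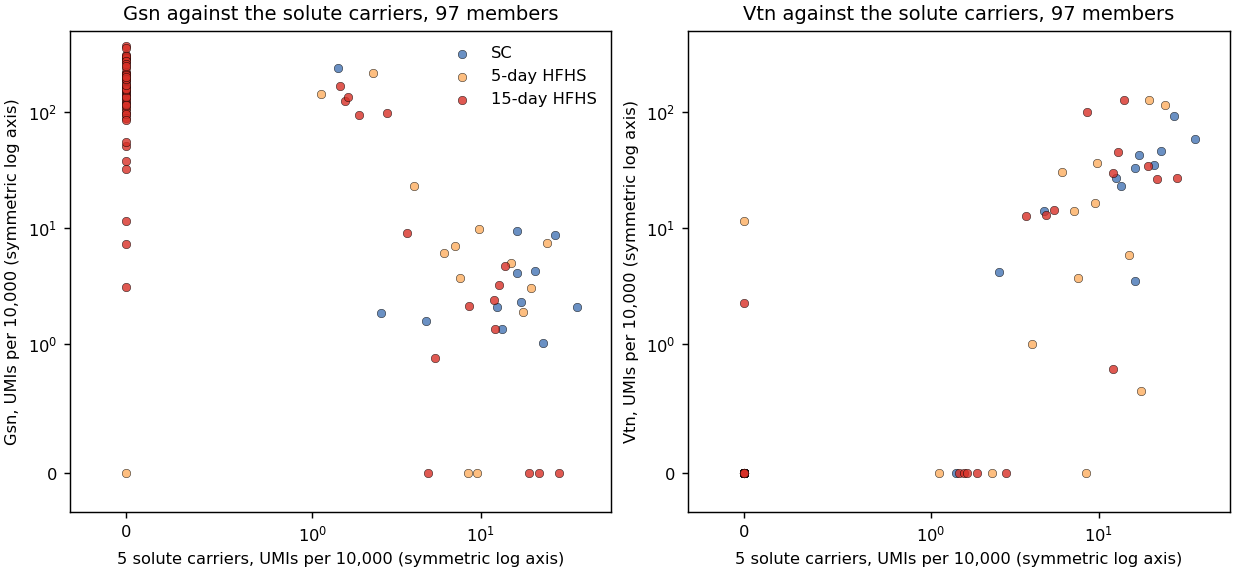
UMIs per 10000 of Gsn (left) and Vtn (right) against the sum of the 5 solute carriers in each of the 97 members, coloured by library; all axes are symmetric log axes. Members without transporter UMIs stack at the left edge with high Gsn, and members with at least 2 of them carry Vtn and little Gsn in all 3 libraries. Of the 10 members with 1 transporter UMI, 8 have high Gsn and 1 has Vtn.

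Transporter-positive members differed in which solute carriers they held. Slc6a13 (chromosome 6, 121300227 to 121337733 in GRCm38), a GABA and taurine transporter, ran from 2 through a median of 8 to 28 UMIs over the 31 members, which the split required in part. Slc6a20a, a proline transporter, was found in 11 of 31 members, the organic anion transporter Slc22a6 in 3, and Slc13a3 and Slc47a1 in none. Of 446 pericytes, 78.3% had Slc6a20a, 39.0% Slc6a13 and 5.83% Slc13a3, and none had Slc22a6 or Slc47a1. With both groups thinned to equal depth, Slc6a20a was seen in 45.6% of pericytes and 3.23% of positive members. Slc6a13 went the other way, at 18.6% of pericytes and 61.3% of positive members. Slc22a8, another organic anion transporter that was not used in the split, had 147 CPM (SC), 309 CPM (5-day) and 159.5 CPM (15-day), against 0 CPM in the negative members of the 15-day library. That difference was at least 17.9-fold, from 11 UMIs against a limit of 3. The sulfate transporter gene Slc13a4 had 40.9, 148 and 116 CPM, against 0 CPM in the negative set. Slc22a8 was also present in pericytes at 195 CPM and in endothelial cells at 377 CPM, so it does not mark fibroblasts among vascular cells.

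Basement membrane genes were present in the positive members of every library. Lama1, the laminin chain of the pial basement membrane, had 393 CPM (SC), 396 CPM (5-day) and 537 CPM (15-day) in positive members, against 2.98 CPM in 15-day negative members, 4.02 CPM in pericytes and 2.03 CPM in endothelial cells. It was detected in 27 of 31 positive members and in 1 of 56 negative members. In the 15-day library the log2 ratio of positive over negative members was 7.49 [4.93 to 12.84], from 37 UMIs against 1. Lamc1, which encodes the laminin gamma-1 chain, had 573, 1200.3 and 1044 CPM in positive members and 161 CPM in 15-day negative members. Nid1, which encodes nidogen, a laminin and collagen IV linker, had 745, 1176 and 1102 CPM in positive members and 339 CPM in 15-day negative members. Col15a1, a collagen of basement membrane zones, had 1400.0, 2029 and 1943 CPM in positive members and 500.1 CPM in 15-day negative members.

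Secreted and lipid-handling proteins took a large part of the positive members' transcripts. Apod, which encodes the lipid-binding apolipoprotein D, had 28606 CPM (SC), 32173 CPM (5-day) and 39382 CPM (15-day) in positive members, against 4479.7 CPM in 15-day negative members. Every positive member carried it, at 46 to 600 UMIs. Spp1, which encodes osteopontin, had 4192, 6162 and 4234 CPM, against 455 CPM in 15-day negative members. Ptgds, which encodes the prostaglandin D synthase and carrier of cerebrospinal fluid, had 8097, 17386 and 21460.2 CPM, but single members decided these sums. It ranged from 0 to 1026 UMIs with a median of 7, and 2 SC, 2 5-day and 3 15-day members held at least 100 UMIs each. Itih2, a hyaluronan-binding inhibitor chain, was detected in 28 of 31 positive members and stood at 892, 532 and 870.0 CPM.

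Transcription factors split into a group that went with the transporters and a group common to both sets. Zic1 had 237 CPM (SC), 346 CPM (5-day) and 261 CPM (15-day) in positive members, against 8.93 CPM in 15-day negative members. Tbx18 had 237, 309 and 348 CPM in positive members, against 23.8 CPM in 15-day negative members. Both are mesenchymal regulators, and Zic1 was as high in pericytes (274 CPM). By contrast Foxd1 had 418, 396 and 276 CPM in positive members and 357 CPM in 15-day negative members, and Foxc1 had 213, 495 and 247 CPM against 152 CPM. Neither marks fibroblasts among vascular cells. Foxd1 was in 69.5% of pericytes, and at equal depth in 34.8% of pericytes and 35.5% of positive members. Foxc1 was in 55.6% of pericytes and 53.6% of endothelial cells before thinning. Nr2f2, a nuclear receptor gene, had 508, 668 and 566 CPM against 577 CPM. Tcf21, a regulator of mesenchyme in many organs, was the reverse case, with 0, 12.4 and 0 CPM in positive members and 190.5 CPM in 15-day negative members. No UMI of any of 39 Hox genes, which mark body regions behind the head, was found in a member of either set. Their sum was also near 0 elsewhere, at 0 CPM in pericytes, 0.290 CPM in endothelial cells and 1.62 CPM in all kept barcodes outside the members. Their absence therefore does not set members apart.

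Signalling genes of the positive set were the cytokine gene Il34, Edn3, Bmp7 and the retinoic acid synthesis gene Aldh1a2. Il34, whose product signals to microglia and macrophages, had 336, 384 and 377 CPM in positive members, against 5.95 CPM in 15-day negative members. Pericytes carried Il34 too, with UMIs in 68.8% of 446 pericytes, against 93.5% of the 31 positive members. With both groups thinned to equal depth these shares were 28.2% and 35.5%, so Il34 does not mark fibroblasts among vascular cells. Edn3, which encodes endothelin 3, had 720.5, 928 and 638 CPM against 107 CPM. Bmp7 had 180.1, 285 and 305 CPM against 29.8 CPM. Aldh1a2 had 123, 61.9 and 203 CPM against 0 CPM, at least 22.7-fold in the 15-day library. Il33, an alarmin, and Cxcl12, a chemokine, were carried by both sets: Il33 had 786, 1671 and 914 CPM in positive members and 405 CPM in 15-day negative members, and Cxcl12 had 401, 829 and 624 CPM against 279.8 CPM.

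Several secreted, matrix and surface protein genes were higher in transporter-negative members, although matrix lists as a whole were not. Of 16 elastic and matricellular genes with at least 20 UMIs, 8 were higher and 8 lower in positive members (median log2 ratio 0.14), and matrix proteases and inhibitors were divided 5 to 5 (median -0.13). In the 15-day library Gsn had 203 CPM in positive members and 14859 CPM in negative members, a log2 ratio of -6.19 [-7.07 to -5.45]. Mfap4, which encodes a protein of elastic microfibrils, had 43.5 CPM in positive and 2161 CPM in negative members, and 52 of 54 negative members carried it. Mgp, which encodes matrix Gla protein, an inhibitor of calcification, had 1885 CPM in positive and 10879 CPM in negative members. Angptl1, an angiopoietin-like secreted protein gene, had no UMI in any of 31 positive members and 655 CPM in 15-day negative members, at least 15.1-fold more. The matrix cross-linking enzyme gene Loxl1 had 0 CPM in the 11 positive members of that library and 441 CPM in the negative ones, at least 10.1-fold more. Mmp2, which encodes a gelatinase, had 72.5 CPM in positive and 411 CPM in negative members. Cd34, a surface sialomucin gene of endothelium and of many fibroblasts, had 14.5 CPM in positive and 336 CPM in negative members, against 523 CPM in endothelial cells.

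Binding proteins of insulin-like growth factors were divided between the sets, and ribosomal protein genes were higher in the negative set. Igfbp4, which encodes a binding protein of insulin-like growth factors, had 218 CPM in positive and 1066 CPM in negative members of the 15-day library, while Igfbp2 had 1117 CPM in positive and 396 CPM in negative members. Ifitm3, an interferon-induced membrane protein gene, had 667 CPM in positive and 1938 CPM in negative members. Ribosomal protein genes together took 62713 CPM in positive and 129298 CPM in negative members, against 84521 CPM in the remaining barcodes of that library. Positive members had about the same ribosomal sum in the SC (68331 CPM) and 5-day (58308 CPM) libraries. Median depth was 5447 UMIs in positive and 5702 UMIs in negative members of the 15-day library, with median mitochondrial shares of 4.39% and 5.67%. The part of these measures in the differences between the sets was not tested.

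To count such differences, a size rule was used in place of a test: at least 60 UMIs in both groups together, a CPM ratio of at least 2 in either direction with its interval beyond 1.5, UMIs in at least 25% of the higher group, and a ratio still beyond 1.5 without the top member of each group. In the 15-day library 954 genes had enough UMIs, of which 42 (4.4%) were higher and 96 (10.1%) lower in positive than in negative members. Without the members that held other cell types' markers these were 33 (4.87% of 677) and 84 (12.4%). Apart from Vtn, a gate gene, and Slc6a13, which made the split, the largest ratios upward were those of Ptgds (log2 7.42 [6.98 to 7.90]), Clec3b (4.21 [3.48 to 5.00]), Tfpi (3.32 [2.57 to 4.10]) and Spp1 (3.22 [2.93 to 3.51]). Clec3b encodes tetranectin and Tfpi an inhibitor of coagulation. Downward, among genes with UMIs in both sets, Gsn and Mfap4 were followed by Cntfr (-5.11 [-10.42 to -2.61]), Gadd45g (-4.83 [-10.15 to -2.33]) and Cd34 (-4.54 [-9.85 to -2.03]), each with 1 UMI in the positive members. Cntfr encodes the ligand-binding chain of the ciliary neurotrophic factor receptor and Gadd45g a stress-induced regulator. Lama1, Il34, Zic1 and Tbx18 had fewer than 60 UMIs in that library and could not meet the rule there. Between all positive and all negative members of the 3 libraries, where 144 genes (8.47% of 1700) were higher and 113 (6.65%) lower, Lama1 (log2 7.21), Il34 (5.96) and Zic1 (4.98) had the largest ratios after those 2 genes. The median of the 471 genes with 20 UMIs in each set was 0.19 in the 15-day library, a shift to be set against each of these ratios.

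Among list genes with at least 20 UMIs in the 15-day library, all 10 laminin and basement membrane genes were higher in positive members (median log2 ratio 1.42, 2 past the size rule), as were 8 of 9 genes of inner arachnoid and pia (median 1.67, 3 past the rule), all but Cped1, although Slc6a13 in that list made the split. Of 17 collagens outside the gate 12 were higher (median 0.71, 3 past the rule), and the 5 lower ones were Col5a1, Col6a3, Col23a1, Col26a1 and Col27a1. Lower in positive members were 13 of 14 complement and immune genes (median -0.99, the exception being Serping1, a complement inhibitor gene), 7 of 9 genes of the insulin-like growth factor axis (median -0.77) and 11 of 14 immediate early genes (median -0.89, 5 past the rule, among them Fos and Jun). Ribosomal protein genes were lower in 78 of 80 cases (median -1.02, 34 past the rule), and nuclear genes of oxidative phosphorylation were divided 11 to 9 (median 0.02). Over all 3579 genes the median was 0.00.

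**Figure D3:**
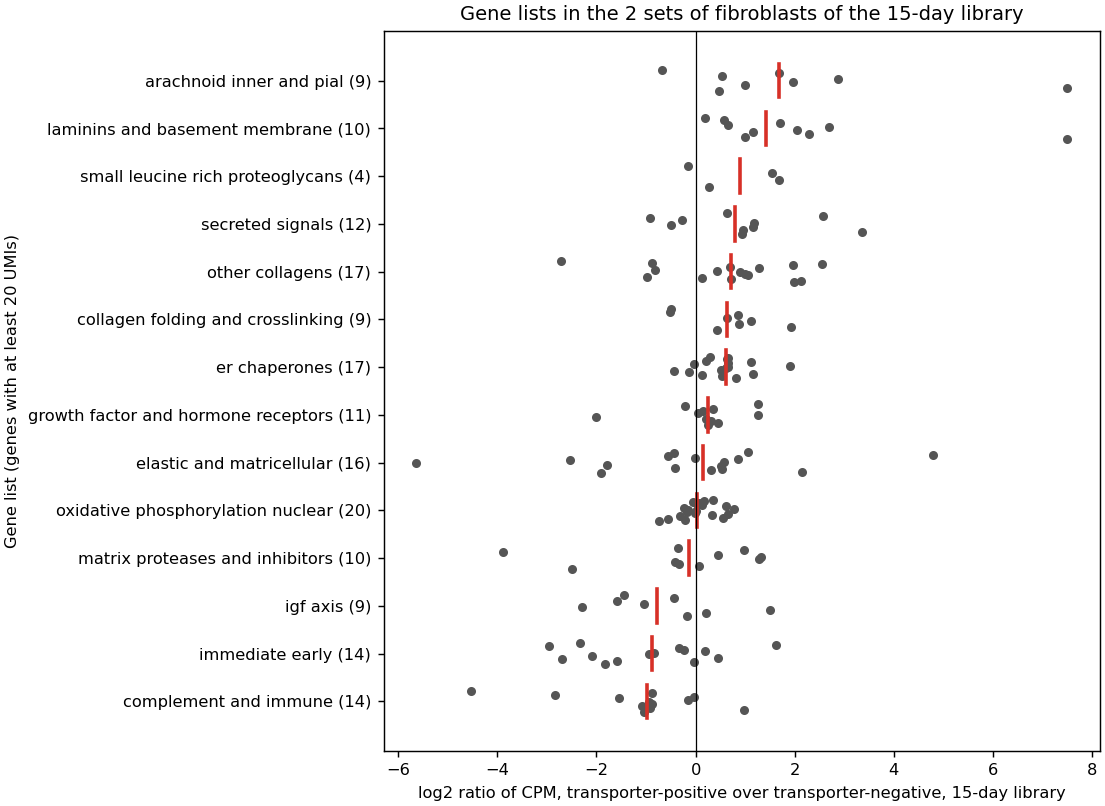
Log2 ratio of CPM, transporter-positive over transporter-negative members of the 15-day library, for single genes with UMIs in both sets (points) of 14 gene lists, with list medians (red bars) and the number of genes with at least 20 UMIs in parentheses. Laminins and arachnoid or pial genes lie right of 0, and complement, immediate early and insulin-like growth factor genes mostly left of it.

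Some genes were high in both sets and near 0 in the other vascular classes. Efemp1, which encodes the matrix protein fibulin 3, had 1262, 1228 and 859 CPM in members of the SC, 5-day and 15-day libraries, against 0.807, 1.08 and 12.2 CPM in pericytes and 0.428, 0.643 and 2.25 CPM in endothelial cells. Pdgfra, the receptor gene that marks fibroblasts and oligodendrocyte precursors, had 813, 971 and 898 CPM in members, against 15.3, 36.8 and 33.1 CPM in pericytes. Serpinf1, which encodes the secreted serpin PEDF, had 604, 914 and 861 CPM in members, against 2.42, 0 and 6.97 CPM in pericytes. Members lay above pericytes in all 3 libraries for each of these genes. Efemp1 and Pdgfra also had similar levels in both sets, at 943 CPM (positive) and 762 CPM (negative) for Efemp1 and 1015 CPM (positive) and 848 CPM (negative) for Pdgfra in the 15-day library.

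UMI sums per class and library, 9 in all, were fitted with edgeR's quasi-likelihood test with library as a block and Benjamini-Hochberg adjustment at 0.05. The barcodes had been sorted by marker genes of the same classes, so genes that go with those markers were bound to differ; the fit shows how evenly a gene differed over the 3 libraries, and the gate genes were left out. Against pericytes, 652 genes (6.07% of 10735 tested) were higher and 506 (4.71%) lower in members, and against endothelial cells 961 (8.95%) were higher and 1178 (11%) lower. In this fit Efemp1 was higher by log2 8.45 ± 0.56 (SE; adjusted p = 3.5e-06, edgeR) than in pericytes and Pdgfra by log2 5.19 ± 0.24 (adjusted p = 1e-06, edgeR). Mfap5, Inmt and Scara5, for an elastic microfibril protein, a methyltransferase and a ferritin receptor, had no UMI in 446 pericytes and were at least 342-, 347- and 246-fold higher in members. Calls in both directions summed to 1158 against pericytes and 2139 against endothelial cells. They were 615 and 1314 without the 5-day library, and 789 against pericytes without the SC library. Without the 10 members that held other cell types' markers they were 1926 against pericytes. The balance against pericytes turned in some settings. It was 575 higher and 675 lower in transporter-positive members, 858 and 1068 without those 10 members, and 543 and 570 without the 15-day library. Member sums came mostly from positive members in SC and from negative members at 15 days, so the fit mixed both sets.

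Most matrix lists had more genes higher than lower against pericytes. Of 22 collagens outside the gate, 14 were higher in members than in pericytes and 0 lower (median log2 2.20); Col4a1 and Col4a2, the collagen IV chains of all vascular basement membranes, did not pass, at log2 0.49 and 0.68. Of 20 elastic and matricellular genes 14 were higher (median 2.95), of 15 matrix proteases and inhibitors 11 (median 2.29), of 12 inner arachnoid and pial genes 10 (median 2.62) and of 18 endoplasmic reticulum chaperones 13 (median 1.07), with 0 lower in each list. Laminin and basement membrane genes were mixed, with 6 of 13 higher and 2 lower, Lamc3 and Agrn (median 0.64). Small leucine-rich proteoglycans outside the gate were 4 of 8 higher and 2 lower, Aspn and Ecm2 (median 1.34). Insulin-like growth factor genes had a higher median than these lists (4.76) and were higher in 8 of 11 cases, such as Igfbp5, Igfbp2 and Igf1, and lower in 1, the receptor gene Igf1r. Of 14 transcription factors 5 were higher and 3 lower, the lower ones being Zic4, Heyl and Ebf1 (log2 -2.35, -3.03 and -2.25), and the median was 0.72. The median over all 10735 genes was -0.06.

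**Figure D4:**
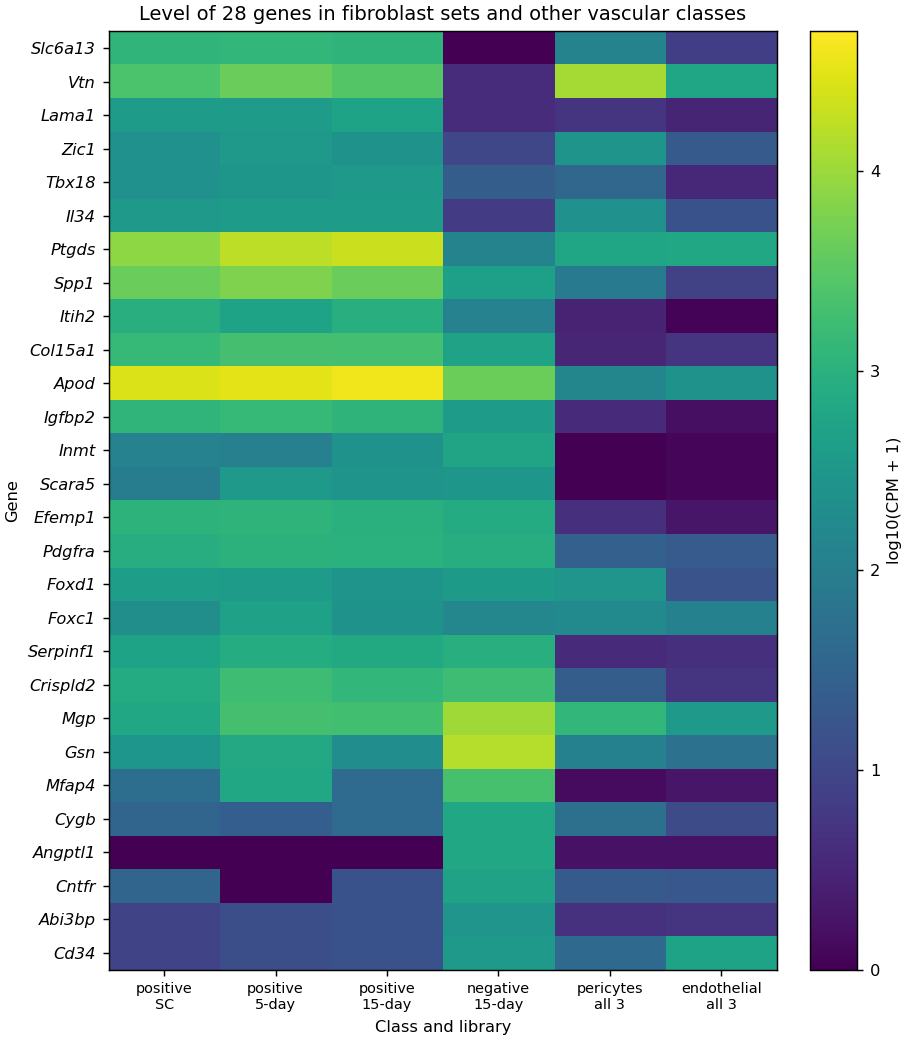
Level of 28 genes as log10(CPM + 1), summed over transporter-positive members of each library, transporter-negative members of the 15-day library, and all pericytes and endothelial cells. Slc6a13, Vtn, Lama1 and Ptgds are higher in the first 3 columns than in the fourth, Gsn, Mfap4 and Angptl1 are lower there, and Pdgfra, Efemp1 and Serpinf1 are at similar levels in all 4.

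Several genes of pericytes and of endothelium had no UMI in members, and others were present at lower levels. Nodal, which encodes a growth factor, had no UMI in any member, against 144, 126 and 126 CPM in pericytes of the SC, 5-day and 15-day libraries, and was at least 29.8-fold lower. Itga7 and Pln (an integrin and a calcium pump regulator) were likewise at 0 in members. Pdgfrb, the platelet-derived growth factor receptor gene of mural cells, was present in members at 170, 162 and 205 CPM, against 866, 1059 and 1081 CPM in pericytes (log2 -2.36 ± 0.22, SE; adjusted p = 2.7e-05, edgeR). Against endothelial cells the genes with the lowest ratios included Mecom, an endothelial regulator with 0 CPM in members and 151, 165 and 155 CPM in endothelial cells. They also included the haemoglobin genes Hba-a1, Hba-a2, Hbb-bt and Hbb-bs, whose near-identical copies may share reads. These are red blood cell markers, and their summed median was 0 UMIs in endothelial cells of each library. At least 20 UMIs of them were held by 42 of 477 (SC), 47 of 463 (5-day) and 37 of 503 (15-day) endothelial cells.

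The diet comparison of all members set different mixes of the 2 sets against each other. At 5 days against SC, 20 genes (3.42% of 584) were higher and 2 (0.342%) lower by the size rule, and 16 of the 20 also passed in transporter-positive members alone. Mfap4 had 733 CPM at 5 days and 85.1 CPM in SC, Gjb2 552 CPM and 124 CPM, and Fos, the lowest, 9.52 CPM and 805 CPM. Of the 77 Mfap4 UMIs at 5 days, 1 member held 47. Fos did not pass in positive members without those that held other cell types' markers. At 15 days against SC, 98 genes (6.55% of 1497) were higher and 55 (3.67%) lower by the size rule. With median-of-ratios scaling, which moved the centre of the ratios by 0.44 on the log2 scale, the same comparison gave 200 higher and 23 lower. Angptl1 had 573 CPM at 15 days and 15.5 CPM in SC, Mfap4 1847 CPM and 85.1 CPM, and Abi3bp 238 CPM and 7.74 CPM. Slc6a13 had 187 CPM at 15 days and 1138 CPM in SC, Il34 64.6 CPM and 317 CPM, and Lama1 87.7 CPM and 372 CPM. Of the 98 higher genes 54 also passed the rule as lower in positive than in negative members of the 15-day library, and of the 55 lower genes 15 passed as higher in positive members. In transporter-positive members alone, 27 of the 98 and 35 of the 55 had enough UMIs for the rule, and 6 and 1 of them passed it. The direction was the same there for 69 of the 98 and 37 of the 55. Over all 1764 genes with at least 20 UMIs in these positive members, 722 were higher and 1042 lower at 15 days. Positive members are part of the sums of all members, at 5 days too, so these overlaps are not independent. Among positive members, Mfap4 had a log2 ratio of -0.18, Lama1 of 0.45 and Slc6a13 of -0.10 at 15 days over SC. Without 4 positive members that held other cell types' markers, described next, the ratio of Lama1 turned to -0.24.

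**Figure D5:**
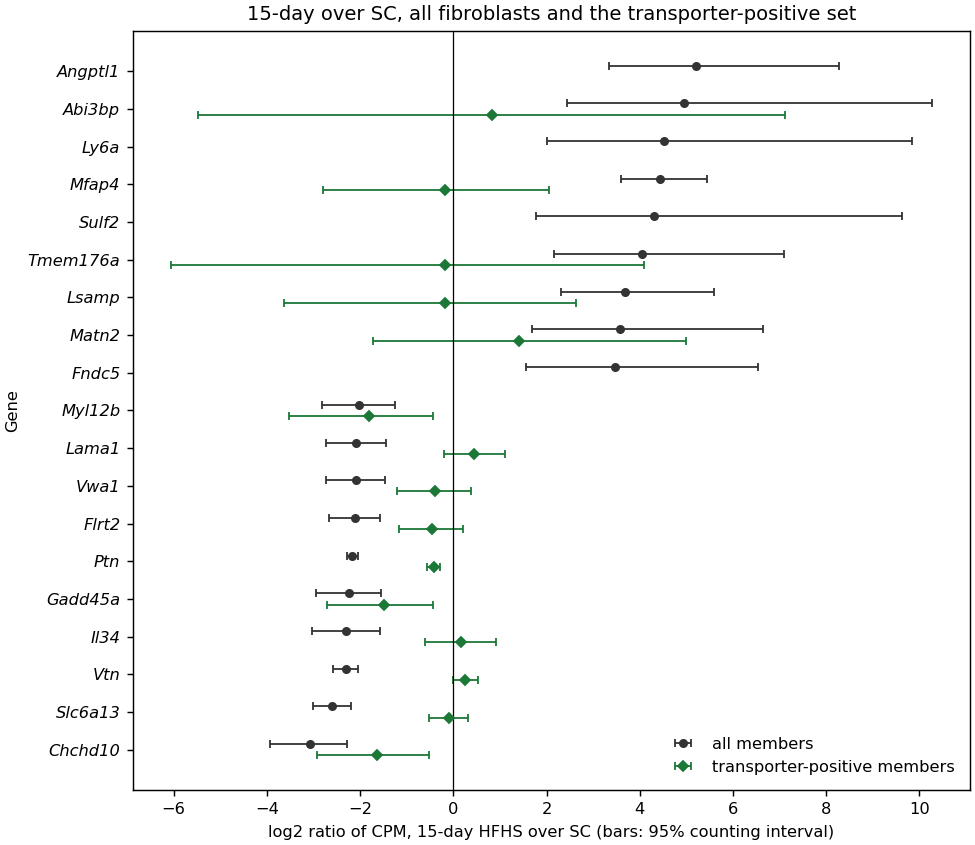
Log2 ratio of CPM at 15 days over SC for genes past the size rule among all members (black circles) and the same genes in transporter-positive members where both libraries held UMIs (green diamonds); bars are 95% counting intervals. For Slc6a13, Vtn, Il34, Lama1 and Mfap4 the green points lie between -0.18 and 0.45.

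Within the transporter-positive set, 23 genes (4.72% of 487) were higher and 3 (0.616%) lower at 5 days than in SC, and 13 genes (2.9% of 449) were higher and 10 (2.23%) lower at 15 days. One SC member of 43195 UMIs held 35.4% of the SC set's UMIs together with 189 astrocyte, 139 neuron and 105 tanycyte marker UMIs, and 1 positive member at 5 days and 2 at 15 days held 25 to 105 neuron marker UMIs. Without these 4 members the counts were 8 higher (2.37% of 338) and 0 lower (0%) at 5 days, and 8 higher (2.73% of 293) and 3 lower (1.02%) at 15 days. Ptgds, Fos and Apoe, which passed with them, did not pass without them at either time. The values that follow leave these members out, so that 10 SC, 8 5-day and 9 15-day members remain.

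Summed over these members, Mgp and S100a6 had a higher CPM than in SC at both times. Mgp had 798 CPM (SC), 2126 CPM (5-day) and 2519 CPM (15-day), with log2 ratios to SC of 1.41 [0.98 to 1.86] and 1.66 [1.21 to 2.12]. It was found in 4 of 10, 6 of 8 and 7 of 9 members, and few members decided its sums. Single members held 52 UMIs in SC, 45 and 60 at 5 days, and 49 and 51 at 15 days. The other SC members held 5 or fewer. S100a6, which encodes a calcium-binding protein abundant in fibroblasts, had 1165, 2761 and 4324 CPM, with log2 ratios of 1.24 [0.88 to 1.62] and 1.89 [1.53 to 2.26], and was found in every member. With the 4 members included, the ratios of S100a6 were 0.27 and 0.65 and did not pass. In the remaining barcodes Mgp went the other way, at log2 -0.46 (5-day) and -0.43 (15-day), and S100a6 was at -0.25 and -0.08. Both comparisons used the same SC members, so the 2 results are not independent.

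At 5 days against SC, Gjb2, which encodes the gap junction protein connexin 26, had 841 CPM and 177 CPM (log2 2.25 [1.38 to 3.20]). The metallothionein gene Mt1 had 930.0 CPM and 279 CPM, a direction that turned with the 4 members included (792 CPM at 5 days and 1580.1 CPM in SC). Gjb2 was again near its SC level at 15 days, with 179 CPM. At 15 days against SC, the actin-monomer-binding gene Tmsb10 had 2142 CPM and 811 CPM (2.64 times as much, log2 interval 0.94 to 1.87), and it was also higher in the remaining barcodes of that library (log2 0.63). Ccl11, which encodes the chemokine eotaxin, had 119 CPM at 15 days and 899 CPM in SC (log2 -2.92 [-4.41 to -1.72]), and its UMIs came from 2 and 6 members. Id3, an inhibitor of helix-loop-helix factors, had 238 CPM at 15 days and 912 CPM in SC, and Pdia3, a disulfide isomerase gene, had 456 CPM and 1165 CPM; with the 4 members included, Pdia3 (log2 -0.97) did not pass. With so few members, 1 or 2 barcodes can move each of these values, and counting intervals leave out the spread between members.

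In these members, at 15 days against SC the median log2 ratio was -0.10 over 12 collagens outside the gate, 0.21 over 8 laminin and basement membrane genes, -0.27 over 12 endoplasmic reticulum chaperones and -0.50 over 10 secreted signals, against -0.05 over all 1211 genes. Ribosomal protein genes were higher in 64 of 78 cases at 15 days (median 0.34, 4 past the size rule) and in 64 of 78 cases at 5 days (median 0.23). With the 4 members included, the same genes were lower in 56 of 78 cases at 15 days and in 61 of 78 at 5 days, so that their direction rested on those members.

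Markers of other cell types were low in most members. At least 20 UMIs of another type's marker list were held by 1 SC, 1 5-day and 8 15-day members, of which 6 were transporter-negative, led by 1 negative member of 39295 UMIs with 1308 neuron marker UMIs. Of the 4 endothelial gate genes, Cldn5 and Flt1 were at 0 in all 31 positive members and Ly6c1 was in 1 of them, while Itm2a was in 30 of 31. The 4 genes summed to 552 CPM in positive members, against 14337 CPM in endothelial cells, and the gate capped this sum. Pericyte genes were not among the marker lists counted above. The pericyte gate genes, also capped, summed to 3089 CPM in positive and 20.3 CPM in negative members, against 13508 CPM in pericytes. Vtn gave 826 of their 840 UMIs in positive members. The border macrophage markers Mrc1, Cd163, Lyve1, Pf4 and F13a1 were at 0 in positive members. In the 15-day negative members the smooth muscle list summed to 113 CPM, against 3699 CPM in pericytes of that library, and Cnn1 was at 0. Barcodes with pars tuberalis markers, an endocrine tissue next to the arcuate nucleus, numbered 0 (SC), 0 (5-day) and 15 (15-day), the same library that held the negative set. The pars tuberalis list summed to 0 CPM in positive and 47.6 CPM in negative members of that library, against 322 CPM in its remaining barcodes. Barcodes with smooth muscle markers numbered 68, 64 and 66, and those with border macrophage markers 18, 10 and 18. What these counts have to do with the 15-day excess of transporter-negative members was not tested.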

How the data were processed

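The members and gene lists were chosen with earlier results of these data known. UMI counts per gene and barcode were deposited by the authors as 1 filtered matrix per diet; Cell Ranger, SAMtools, Scanpy 1.4.4 and the build GRCm38 are named in the submitters' processing notes, and the annotation is not given in the sources used here. Barcodes passed with 250 or more genes and a mitochondrial share no higher than 20%. Counts were summed per class and library, and the 9 sums were fitted with edgeR 4.0.16 (TMM scaling, filterByExpr, library as block, quasi-likelihood test, Benjamini-Hochberg adjustment); DESeq2 1.42.0 was an alternative. Diets were compared as CPM ratios of raw counts with exact conditional 95% intervals and the size rule, without a test, since each diet has 1 library. On simulated counts with 4-fold changes the size rule recovered 81% of changed genes at 5 days (531 genes tested) and 65.5% at 15 days (1232 genes tested). All simulated members of a library shared 1 expression profile, without 2 sets and without mixed members. These rates therefore do not show how the rule behaves on the real members. Named genes were those with the largest ratios in each comparison and, per list, those with the most UMIs. A doublet caller (Scrublet) marked 0.0178%, 0.0408% and 1.41% of the SC, 5-day and 15-day barcodes. It had not worked in the first 2 libraries, so no barcode was removed as a doublet; removing the top scores at a fixed rate, as an alternative, took out 0, 0 and 3 members. Python 3.11.15, Scanpy 1.11.5 and R 4.3.3 were used. Some items are not reported here.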

Additional observations from a re-analysis of the deposited data

How the results depend on the processing

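A setting counted as the same when a count stayed within a fixed factor of the main count or a ratio inside its main interval. It was reversed when a ratio changed direction, and moved otherwise. The side of a threshold on which each gene lay was not compared, and single genes without UMIs in 1 group were left out. Of the summary results 62 settings gave the same, 12 moved and 1 reversed. Of the single genes 98 gave the same, 34 moved and 8 reversed. The 15-day share ratio to SC was 0.918 in transporter-positive members alone, against 5.36 over all members. Calls against pericytes, 1158 in all, were 1926 without the members holding other cell types' markers and ran from 615 to 1113 with 1 library left out; against endothelial cells 2139 calls ran from 1314 to 2001. No paired analysis between diets was possible because each diet has 1 library; without the library block (no replicate block) the calls were 1276 against pericytes and 2326 against endothelial cells. The size rule at 5 days, with 22 genes past it, gave 10 without mixed members, 8 in positive members without them, 37 with members weighted equally and 3 after thinning. At 15 days the 153 genes became 23 in positive members, 11 in those without mixed members, 285 with equal weights and 23 after thinning. Between the sets 138 genes passed in the 15-day library and 257 with 3 libraries together. Among single genes, log2 ratios to SC turned for Prdx6 at 5 days (0.22 in positive members without mixed ones), and at 15 days in positive members for Mfap4 (-0.18, and -0.35 without mixed ones), Tmem176a (-0.18), Lsamp (-0.18), Vtn (0.25), Il34 (0.17) and Lama1 (0.45). The cause was not tested. Genes with fewer than 60 UMIs in both groups together lie outside the size rule, which limits what the 31 positive members can show.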
